A study of Mus musculus with 4 samples.

Results

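The vanins and the enzymes that make coenzyme A are described here in mouse testis with and without an intact *Ccnyl1*, the gene of cyclin Y-like 1. Of the 9 genes, *Vnn1* and *Vnn3* encode pantetheinases, *Pank1* to *Pank4* the pantothenate kinase family, and *Ppcs*, *Ppcdc* and *Coasy* the enzymes that follow. All probe sets that the platform annotation pairs with exactly 1 gene symbol, that symbol being 1 of these genes, were taken, which gave 9 of 18193 genes and 19 of the 45037 probe sets of the array that are not controls. A further probe set carries *Ppcs* together with another symbol and was left out. The genes were selected on the same comparison of genotypes that is given below, in which *Vnn1* stood out, so that their differences are a description and carry no test.

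Coenzyme A carries acyl groups through fatty acid oxidation, the citric acid cycle and lipid synthesis. Cells build it from pantothenate (vitamin B5), which pantothenate kinases phosphorylate at the step that controls the pathway, and from cysteine and ATP. Coenzyme A that is broken down outside the cell yields pantetheine, which the vanins hydrolyse to pantothenate and cysteamine. Vanin-1 is held at the cell surface by a lipid anchor, and *Vnn1* is known from the developing mouse testis as a gene of Sertoli cells, the somatic cells that support the germ cells.

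Whole testes came from 2 WT and 2 *Ccnyl1*-/- mice, the latter called Ccnyl1 KO in the labels. All 4 were adult C57BL/6 mice of 2 months for which no treatment is named, and each testis RNA was read on 1 Affymetrix array. The knockout carries the germ-line, KO-first allele tm1a(EUCOMM)Wtsi, in which a lacZ cassette traps the transcript within the gene in all tissues. The labels call the arrays biological replicates of a genotype, which is read here as 1 animal per array. Whether the WT mice were littermates of these *Ccnyl1*-/- mice was not given in the sources used here.

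Values are MAS 5.0 signals, intensities in arbitrary units on a linear scale, and a log2 fold change is that of *Ccnyl1*-/- over WT on log2(signal + 16), which understates the difference of dim probe sets. Since the probes of each set bind with their own strength, the signals of different probe sets are not compared with each other. The *Ccnyl1* probe set gave 2256 and 2426 in WT against 921 and 969 in *Ccnyl1*-/- testes, 40.4% of WT (log2 fold change -1.29, adjusted p = 0.00463 by limma). Its place relative to the cassette is not known here, so it separates the genotypes but does not measure how much intact transcript is left. Array pairs correlated at 0.977 to 0.980 on the log2 scale, and no pair stood apart.

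*Vnn1* was by far the most different of the 9 genes, with *Ccnyl1*-/- signals at 11.1% and 15.1% of WT at its probe sets. Its brighter probe set, 1418486_at, gave 990 and 1064 in WT against 112 and 116 in *Ccnyl1*-/- testes. The means were 1027 ± 51.7 and 114 ± 3.10 (SD, n = 2 mice each), so that 11.1% of the WT signal was left, a log2 fold change of -3.00 ± 0.14 (SE) with a 95% interval of -3.32 to -2.69. Both knockout values lay far below both WT values, and the difference was 29.7 times the largest difference between 2 mice of a genotype at this probe set.

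The second *Vnn1* probe set, 1447845_s_at, gave 544 and 504 in WT against 88.1 and 69.8 in *Ccnyl1*-/- testes, which left 15.1% of the WT signal. Its log2 fold change was -2.51 ± 0.18 (SE), with an interval of -2.92 to -2.10. The mice of a genotype again lay close together and the genotypes apart, so that both probe sets of the gene showed the same picture. The suffix _s_at marks probes that may read more than 1 transcript. Among the 32438 probe sets bright enough to be compared, the *Vnn1* probe sets ranked 1 and 2 from the lowest log2 fold change with the offset of 16, and 3 and 21 with no offset, where dim probe sets spread more widely. Neither *Vnn1* probe set reached 0 in the knockout, and without a detection call it is not known whether what remained was above background.

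*Vnn3*, the neighbouring gene for the second pantetheinase, did not share this. Its only probe set gave 96.1 and 92.2 in WT against 81.8 and 92.3 in *Ccnyl1*-/- testes. One knockout value lay between the WT values and the other below them, and the log2 fold change was -0.10, with an interval of -0.66 to 0.46. This probe set is dim, and a difference of up to about that interval would not have been seen.

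**Figure D1:**
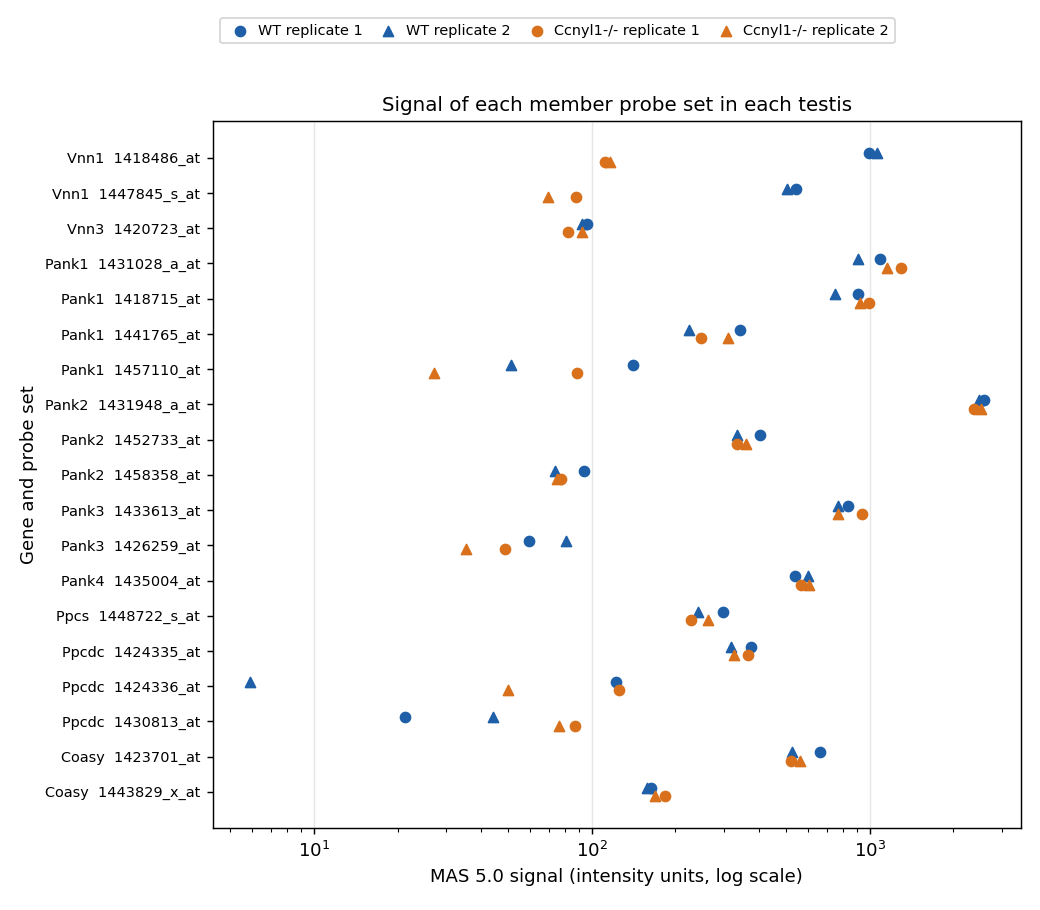
The MAS 5.0 signal (x axis, log scale, arbitrary units) is plotted for the 19 probe sets of the 9 genes (y axis) in each of the 4 testes, WT in blue and Ccnyl1-/- in orange, with circles for replicate 1 and triangles for replicate 2. The 2 *Vnn1* probe sets are the ones with a wide gap between the colours, with 990 and 1064 against 112 and 116 at the upper one, while the colours lie side by side or are mixed at the brighter enzyme probe sets.

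All 19 probe sets of the 9 genes passed the minimum mean signal of 32, and 2 of them, both of *Vnn1*, passed the threshold of an adjusted p under 0.05 by limma. Over all 32438 probe sets compared, 4 passed, all lower in *Ccnyl1*-/- testes, or 0.0123%. That count was 0, without *Vnn1*, in eBayes without the trend, and 11 to 57 with 1 mouse left out. Since *Vnn1* was chosen by this contrast, nothing is read from that count. In the other measure used here, all values of one genotype lying beyond all of the other, 3 of the 19 were lower and 4 higher in the knockout, where 15.3% of all probe sets were lower and 20.6% higher without overlap. With 2 mice against 2, values that do not overlap are common on this array.

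Pantothenate kinase 1, made from *Pank1*, catalyses the first step of the pathway, and its probe sets differed among themselves. The brightest, 1431028_a_at, gave 1085 and 907 in WT against 1300 and 1153 in *Ccnyl1*-/- testes. The mean was 123% of WT, with both knockout mice above both WT mice, and the log2 fold change was 0.30, with an interval of 0.03 to 0.57. Probe set 1418715_at gave 909 and 749 in WT against 995 and 920 in knockout testes, again without overlap, for a log2 fold change of 0.21 (-0.07 to 0.49).

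The other *Pank1* probe sets did not follow. At 1441765_at, with 342 and 224 in WT against 247 and 310 in *Ccnyl1*-/- testes, the mice were mixed and the log2 fold change was 0.00 (-0.50 to 0.50). The dim 1457110_at gave 140 and 51.2 in WT against 88.5 and 27.2 in knockout testes, a log2 fold change of -0.61. There, replicate 1 was above replicate 2 by more than 1 log2 unit in both genotypes, and the interval of -1.79 to 0.57 spans both directions.

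*Pank2*, the family member whose human gene is mutated in a neurodegeneration with brain iron, lay at nearly equal signals in the genotypes. Probe set 1431948_a_at gave 2574 and 2474 in WT against 2379 and 2518 in *Ccnyl1*-/- testes (log2 fold change -0.04, -0.22 to 0.13), which is the narrowest interval among the 19. Probe set 1452733_at, with 404 and 333 against 332 and 359, differed by -0.08, and 1458358_at, with 93.6 and 73.7 against 77.3 and 74.8, by -0.11. At all 3 the genotypes overlapped.

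*Pank3* encodes a cytosolic kinase of the family, and its bright probe set, 1433613_at, gave 838 and 768 in WT against 936 and 766 in *Ccnyl1*-/- testes. The knockout mice thus held both the highest and the lowest value, and the log2 fold change was 0.08 (-0.21 to 0.37). The dim *Pank3* probe set 1426259_at gave 59.4 and 80.8 against 48.6 and 35.2, lower in both knockout mice, with a log2 fold change of -0.57 and an interval of -1.36 to 0.21. *Pank4*, the family member whose product is held not to act as a kinase, gave 539 and 600 against 564 and 604 (0.04, -0.24 to 0.32), with the mice of both genotypes interleaved.

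The enzymes after the kinases did not separate the genotypes at their brightest probe sets. *Ppcs*, whose enzyme joins phosphopantothenate to cysteine, gave 296 and 241 in WT against 228 and 261 in *Ccnyl1*-/- testes, a log2 fold change of -0.12 (-0.52 to 0.27). These values come from 1448722_s_at alone, whose suffix marks probes that may read more than 1 transcript. *Ppcdc*, whose enzyme removes the carboxyl group to give phosphopantetheine, gave 374 and 318 against 364 and 326 at 1424335_at, where both knockout values lay between the WT values and the log2 fold change was 0.00 (-0.35 to 0.34).

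Both other *Ppcdc* probe sets were dim and gave positive values. At 1430813_at the signals were 21.3 and 44.1 in WT against 86.8 and 76.3 in *Ccnyl1*-/- testes, higher in both knockout mice (log2 fold change 1.04, 0.19 to 1.89). At 1424336_at they were 122 and 5.87 against 125 and 49.7, so that the WT mice differed from each other by 2.66 log2 units, more than any other replicates among the 19 probe sets, and the log2 fold change of 0.81 had an interval of -0.95 to 2.57. The bright and the dim probe sets of *Ppcdc* therefore gave different values for the same gene.

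*Coasy* encodes the bifunctional enzyme of the last steps to coenzyme A. Probe set 1423701_at gave 662 and 523 in WT against 520 and 562 in *Ccnyl1*-/- testes, overlapping, for a log2 fold change of -0.12 (-0.45 to 0.21). Probe set 1443829_x_at gave 164 and 158 against 183 and 169, slightly higher in both knockout mice, for 0.12 (-0.30 to 0.53). The suffix _x_at marks probes that may bind transcripts of other genes.

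Over the 16 probe sets of the 7 coenzyme A synthesis genes, 8 log2 fold changes were positive and 8 negative, and their median was 0.00, where the median over all probe sets compared was 0.02. Without overlap, 1 was lower and 4 higher, beside shares of 15.3% and 20.6% over the array, and none passed the threshold by limma. At the brightest probe set of each of the 7 genes the log2 fold changes ran from -0.12 to 0.30. The wider values came from dim sets: the 6 probe sets with a mean signal under 200 ran from -0.61 to 1.04, the 10 brighter ones from -0.12 to 0.30.

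**Figure D2:**
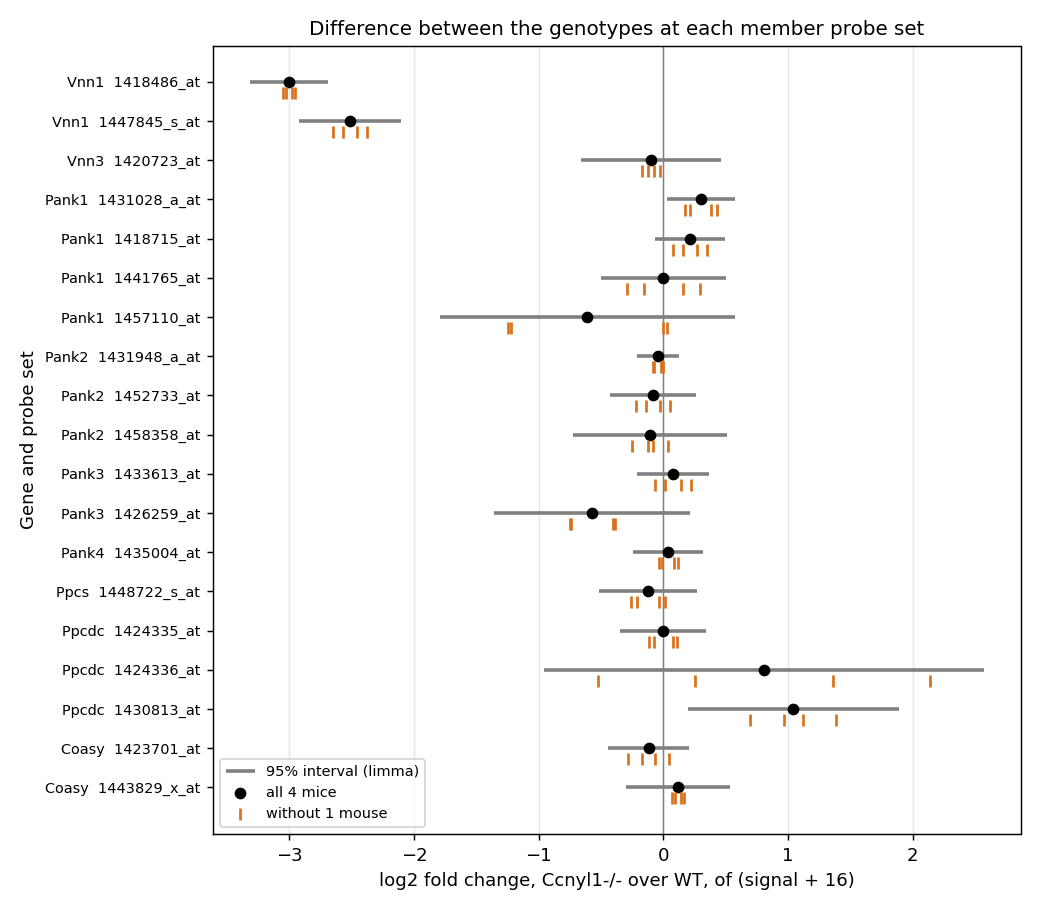
The log2 fold change of Ccnyl1-/- over WT (x axis, on signal + 16) is shown for the 19 probe sets (y axis) as black points with the 95% interval of limma in grey, and orange ticks give the value with 1 of the 4 mice left out. Both *Vnn1* probe sets lie at -2.51 and below with their ticks close around them, and 15 of the 19 intervals include 0.

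Leaving out 1 mouse at a time did not alter the picture of *Vnn1*, which ran from -3.05 to -2.95 at 1418486_at and from -2.65 to -2.37 at 1447845_s_at. At the brightest *Pank1* probe set it ran from 0.17 to 0.43. The dim *Ppcdc* probe set 1424336_at ran from -0.52 to 2.14 and thus depended on which WT mouse was kept. The size at *Vnn1* depended on the offset: with no offset the log2 fold changes were -3.17 and -2.74.

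The array is of whole testis, in which fewer cells of a type and less RNA per cell cannot be told apart. Sertoli cell markers were read as a list of 16 genes, of which 15 have a probe set and all 15 passed the minimum signal. Their summed signal, which weights the genes by the brightness of their probes, was 48827 and 50600 in WT against 50228 and 47427 in *Ccnyl1*-/- testes, 98.2% of WT and overlapping. None of the 15 passed the threshold by limma, 9 were positive and 6 negative, and the median log2 fold change was 0.05. *Clu* and *Ctsl*, which encode clusterin and cathepsin L, made up 57.8% of the WT sum. Without them the sums were 19471 and 22507 in WT against 23036 and 21616 in knockout testes, 106% of WT. *Gata4*, *Cldn11*, *Rhox5* and *Fshr* were higher in both knockout mice and *Clu* lower, which is 4 and 1 of the 15 genes, beside 20.6% and 15.3% of all probe sets. The largest values were those of the dim *Amh* (-0.82) and *Fshr* (0.64), the anti-Müllerian hormone and the receptor of follicle-stimulating hormone, followed by the protease inhibitor gene *Cst9* (0.27).

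Lists of the germ cell stages summed to between 99.3% and 106% of WT, and none of their genes passed the threshold. Their median log2 fold changes, which do not weight by brightness, ran from -0.01 to 0.08. The largest single value was that of *Dmc1* (-0.64), lower in both knockout mice, in the spermatocyte list of 5 positive and 3 negative genes. Among other cells, the 8 macrophage markers had a median log2 fold change of -0.15, with sums from 3099 to 4063 in WT and from 2678 to 3051 in *Ccnyl1*-/- testes, 7 of them negative and none past the threshold. The 5 Leydig cell markers summed to 131% of WT with wide differences within each genotype. Replicates 1 and 2 gave 7149 and 3935 in WT against 9293 and 5220 in *Ccnyl1*-/- testes, replicate 1 being higher in both genotypes. Epididymal markers summed to 238 to 341 in WT and 285 to 324 in knockout testes, and 4 of the 6 with a probe set were under the minimum signal. The larger part of each sum was *Rnase10*, with 246 and 162 in WT against 179 and 178 in knockout testes. *Lcn8*, an epididymal lipocalin, gave 12.3 and 26.2 against 58.2 and 54.1 and did not pass (log2 fold change 1.06, limma adjusted p = 0.810). *Hba-a1*, an alpha globin gene of red blood cells, gave 1.68 and 6.45 against 26.6 and 30.7, under the minimum signal. The part of these cells in the *Vnn1* signal was not tested.

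Genes around the pathway were then read from 9 lists of transporters, breakdown enzymes, users of coenzyme A and relatives, 78 genes in all. Of these, 71 have a probe set with a single symbol and 66 passed the minimum signal, each by its brightest probe set. None of the 66 passed the threshold of an adjusted p under 0.05 by limma, beside 0.0123% of all probe sets in either direction, and the smallest adjusted p was 0.758. At an unadjusted p under 0.05 there were 4, or 6.06%, beside 6.05% of all probe sets compared. In all, 29 were positive and 37 negative, and the median was -0.01. Without overlap, 11 (16.7%) were lower and 14 (21.2%) higher, close to the shares of 15.3% and 20.6% over the array.

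The enzymes that hydrolyse coenzyme A were negative at the brightest probe sets of the 3 genes compared. *Nudt19*, a Nudix hydrolase of peroxisomes, gave 367 and 382 in WT against 268 and 278 in *Ccnyl1*-/- testes, 73.0% of WT, for a log2 fold change of -0.43 (-0.75 to -0.11). That was the smallest p of the 66 genes, under 0.05 before adjustment, and it did not pass over the array (limma adjusted p = 0.758). The second *Nudt19* probe set lay at -0.29. *Nudt8* and *Nudt7*, which act on coenzyme A in mitochondria and peroxisomes, were at -0.18 and -0.15, though another *Nudt7* probe set was at 0.53. All 4 *Nudt19* values were separated by genotype, those of *Nudt8* were mixed.

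On the supply side, *Slc5a6*, the sodium-dependent vitamin transporter that brings pantothenate into cells, gave 71.5 and 72.4 in WT against 92.0 and 75.7 in *Ccnyl1*-/- testes (0.18, limma adjusted p = 0.940). Among the carriers, *Slc25a42*, a mitochondrial carrier of coenzyme A, was at 0.27 with another probe set at -0.16, and *Slc33a1*, the acetyl-CoA carrier of the endoplasmic reticulum, at 0.25. *Slc33a1* was higher in both knockout mice, with 655 and 637 against 524 and 556, and did not pass (limma adjusted p = 0.824).

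*Aasdhppt*, which moves the phosphopantetheine arm of coenzyme A onto carrier proteins, was almost equal between genotypes, with 1972 and 1989 in WT against 1950 and 1991 in *Ccnyl1*-/- testes (-0.01). The carriers with the largest values were the folate enzymes *Aldh1l2* (0.39) and *Aldh1l1* (0.30), which bear such an arm. In the family of nitrilases to which the vanins belong, *Btd*, the biotinidase, was at 0.01, *Nit1* at -0.07 and *Nit2*, an omega-amidase, at 0.38. *Nit2* gave 241 and 206 against 292 and 296, higher in both knockout mice, without passing (limma adjusted p = 0.816).

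Cysteamine, the second product of the vanins, is oxidised by the dioxygenase of *Ado*, which gave 417 and 384 in WT against 427 and 487 in *Ccnyl1*-/- testes (0.18), while another *Ado* probe set was at -0.74. *Fmo1*, a flavin monooxygenase that makes taurine from hypotaurine, had the largest positive value of the 66 genes at their brightest probe sets, with 58.3 and 92.6 against 118 and 144 (0.71, 0.08 to 1.33, limma adjusted p = 0.797). *Gadl1*, a decarboxylase, was at -0.47. Of glutathione genes, *Gss*, the glutathione synthetase, was at -0.53, with a WT value of 498 above the other 3 mice, and *Gsr*, the reductase, at 0.27. Another *Gss* probe set was at -0.75, and another of *Gsr* at 0.03.

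Among the genes that put acyl groups on coenzyme A and take them off, the largest differences were at *Acsm3* (0.43) and *Acss1* (-0.24, with another probe set at 0.23), both acyl-CoA synthetases of mitochondria, and at the thioesterases *Acot1* (0.37) and *Acot11* (0.24). *Acsm3* was dim, with 24.6 and 32.5 in WT against 42.3 and 45.2 in *Ccnyl1*-/- testes. Only the knockout signals brought its mean past the minimum of 32. Dimmer probe sets of *Acsl6* and *Acot2* reached 1.30 and 0.72, where the brightest were at -0.02 and -0.08. *Acot9*, a mitochondrial thioesterase, was at -0.16 with the genotypes apart. *Vnn1* is known in liver as a target of the nuclear receptor PPARA. *Ppara* itself gave 93.1 and 100 in WT against 127 and 116 in *Ccnyl1*-/- testes (0.29), and its list of 14 compared genes had 7 positive and 7 negative values with a median of 0.00. Its largest difference was that of *Fabp1*, a fatty acid binding protein (-0.80), where 1 knockout mouse at 13.2 lay below the other 3.

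**Figure D3:**
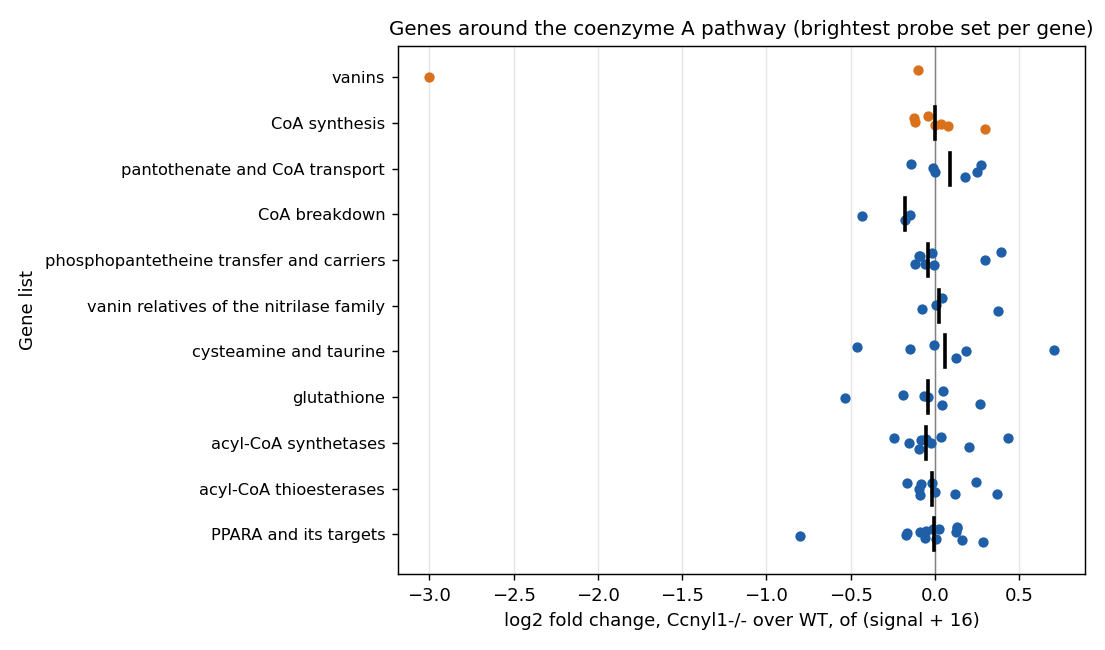
Each point is 1 gene at its brightest probe set, placed by its log2 fold change of Ccnyl1-/- over WT (x axis, on signal + 16) in its list (y axis), with the vanins and the coenzyme A synthesis genes in orange, the 9 other lists in blue and black bars at the list medians. *Vnn1* lies alone at -3.00, and the 66 genes of the other lists run from -0.80 to 0.71.

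*Vnn1* lies on mouse chromosome 10 beside *Vnn3*, and the 5 nearest genes with a probe set on each side were read, *Vnn3* being set apart. Of these 10 neighbours, 7 passed the minimum signal and none passed the threshold by limma, none even at an unadjusted p under 0.05. Their log2 fold changes ran from -0.21 to 0.01 with a median of -0.06, and the smallest adjusted p was 0.878. *Slc18b1*, a polyamine carrier on the side of *Vnn3*, was at -0.21, and *Stx7*, a syntaxin of endosomes on the other side, at -0.17.

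On the side of *Vnn3*, *Eya4* was at -0.05, *Tcf21* at -0.05, *Tbpl1*, a factor for transcription in spermatids, at -0.06 and *Slc2a12* at 0.01. On the other side *Ccn2*, a matricellular growth factor gene, was at -0.12. *Taar1*, next to *Vnn1*, was among the 3 too dim to compare, with *Moxd1* and *Gm15270*.

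**Figure D4:**
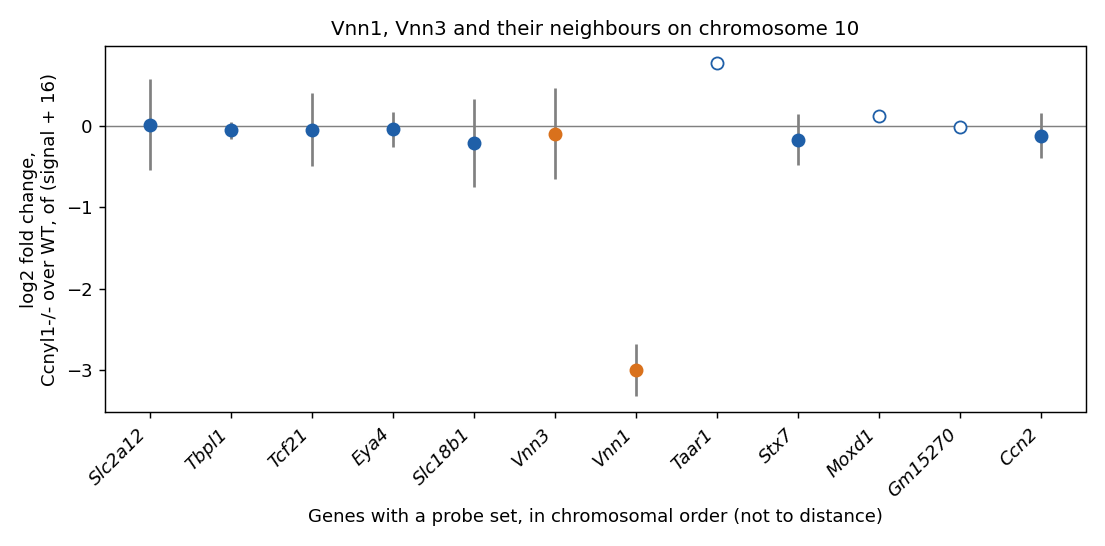
The log2 fold change of Ccnyl1-/- over WT (y axis, on signal + 16) is shown for *Vnn1* and *Vnn3* in orange and their 10 neighbours in blue in the order of the chromosome (x axis, not to distance), with 95% intervals of limma and open points for the 3 genes under the minimum signal. The 7 compared neighbours lie between -0.21 and 0.01, and *Vnn1* at -3.00.

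The genes whose pattern over the 4 arrays was nearest to that of *Vnn1* were sought by the Euclidean distance between centred log2 signals. The nearest was *B230311B06Rik*, at a distance of 0.998, with 90.2 and 92.9 in WT against 11.2 and 10.4 in *Ccnyl1*-/- testes. It was followed by *Nlrp3* (1.29), which encodes an inflammasome sensor, *Hal* (1.31), the histidine ammonia-lyase gene, *Gpr45* (1.33), an orphan receptor gene, and *Ager* (1.36), the receptor of glycated end products. *Hal* gave 234 and 224 in WT against 40.3 and 74.7 in knockout testes. None of the 5 passed the threshold by limma. Those other than *Hal* were dim, with mean signals from 35.4 (*Gpr45*) to 51.2 (*B230311B06Rik*). Their knockout means were at most 11.5, so that only the WT signals brought them past the minimum of 32. Without a detection call it is not known whether these knockout signals were above background. The log2 fold changes of the 5 lay between -2.01 and -1.69 with the offset and between -3.09 and -2.06 without it, where those of *Vnn1* were -3.17 and -2.74, so that their order depends on the offset. Likeness over 4 arrays of 2 genotypes is mostly that of the genotype difference.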

How the data were processed

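Total RNA of 4 testes was measured on 1 Affymetrix mouse array each. The values deposited by the authors are MAS 5.0 signal intensities with global scaling. The methods name a target of 100, whereas each deposited array has a trimmed mean of 500.0. Probe sets were named through the platform annotation, those with 1 symbol only. In R 4.3.3 with limma 3.58.1, log2(signal + 16) was fitted on genotype (lmFit, eBayes with trend) over the 32438 probe sets with a mean of at least 32, with Benjamini-Hochberg adjustment at 0.05. A gene outside the 9 was read by its brightest probe set. From each list the 2 genes with the largest difference were named, beside fixed transporters and enzymes, the neighbours and the 5 nearest patterns; of the cell type lists, genes with a log2 fold change of at least 1 in size and the 3 largest of the Sertoli list. *Clu*, *Ctsl*, *Gata4*, *Cldn11*, *Rhox5*, *Dmc1*, *H2-Aa*, *Rnase10*, *Acsl6*, *Acot2* and *Acot9* were named after their values were seen. The members and lists were chosen with earlier results of these data known. The fit was run on simulated data drawn with normal noise and the variances it had itself estimated. That run therefore does not test whether these assumptions hold for the real arrays. The number of arrays limits the precision.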

Additional observations from a re-analysis of the deposited data

How the results depend on the processing

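With 2 mice per genotype and no detection call, small differences and dim probe sets such as that of *Vnn3* are poorly resolved. The 4 probe sets past the threshold over the array became 7 with arrays scaled to one median, 0 with eBayes without the trend (1906 at an unadjusted p under 0.05) and 0 with the methods' t-test (1900 at an unadjusted p under 0.05). They became 11 to 57 with 1 mouse left out: 57 without WT replicate 1, 47 without WT replicate 2, 11 without *Ccnyl1*-/- replicate 1 and 14 without *Ccnyl1*-/- replicate 2, where the lone mouse is assumed to vary like the others. All 4 were kept in each of these except eBayes without the trend and the methods' t-test, in which *Vnn1* no longer passed. With the replicate number as a block the count was 14 (10 lower, 4 higher). The numbers were not shown to pair the mice: over all probe sets compared, deviations of mice with the same number correlated at 0.01. The Leydig cell sums, though, were higher in replicate 1 of both genotypes. The pathway genes and the neighbours of *Vnn1* gave 0 past the threshold in every setting run. In eBayes without the trend and the methods' t-test this was bound to be so, since no probe set of the array passed. With few probe sets past the threshold elsewhere, a 0 for these genes does not show that they were equal.

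Of 190 log2 fold changes of the 19 probe sets under 10 other settings, 12 moved by more than the spread between mice. Those of *Vnn1* stayed negative in all 10. An offset of 80, which corresponds to the stated target and was added after seeing the data, gave -2.51 and -1.93 for *Vnn1*, 0.31 and 0.53 for the dim *Ppcdc* probe sets 1424336_at and 1430813_at. The sign was kept under all 10 settings at 9 of the 19 probe sets, *Vnn3* and the 2 brightest of *Pank1* among them. Scaling to one median moved the median of all probe sets by -0.07. The signs of *Pank4*, of the bright *Pank3* probe set and of *Pank1* 1441765_at turned (to -0.04, to just under 0 and to -0.07).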
